A study of Mus musculus with 9 samples.

Results

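The 8 genes described here encode the enzymes that add and remove the phosphate on translation initiation factor eIF2, and regulators placed before and after that step. They are the 4 eIF2 kinase genes *Eif2ak1*, *Eif2ak2*, *Eif2ak3* and *Eif2ak4*, the phosphatase subunit genes *Ppp1r15a* and *Ppp1r15b*, the mitochondrial protease gene *Oma1*, and *Crebrf*, which encodes a regulator of the transcription factor CREB3. They were chosen by gene symbol, and all 8 were found among the 26858 genes of the table and among the 14990 with enough counts to be tested.

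Phosphorylation of eIF2 lowers translation of most mRNAs while it favors translation of a few, among them *Atf4*, whose product switches on genes of amino acid supply and redox balance; this is the integrated stress response. Each kinase answers a different cue: heme shortage and relayed mitochondrial stress, RNA duplexes, unfolded protein in the endoplasmic reticulum, or uncharged tRNA. Protein phosphatase PP1 reverses the step when a PPP1R15 subunit brings it to eIF2, and in mitochondrial stress the protease OMA1 cleaves DELE1, which then activates the kinase HRI.

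The study removed QPC, a complex III subunit of mitochondria encoded by *Uqcrq* that binds ubiquinone, from the nephron progenitors of the cap mesenchyme, to ask how mitochondrial electron transport bears on kidney development. All embryos carried the *Six2-eGFP/cre* transgene, an artificial chromosome in which the *Six2* promoter drives Cre fused to eGFP. Controls were *Six2-Qpc*+/- heterozygotes (n = 4) and mutants were *Six2-Qpc*-/- (n = 5), both at age E18.5. RNA from eGFP-sorted cells was sequenced, with 1 library for each sample. The study counts mice as its samples, while litter and sex were not stated in the sources used here. The controls thus carried the transgene and the heterozygous *Qpc* deletion, and no wild-type sample was part of the comparison.

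Depth overlapped between groups, with 22571729 to 23691130 total counts in controls and 21040536 to 23986458 in mutants (2-sided exact permutation test of the totals, p = 0.135). Levels are given as CPM, counts per 1000000 after normalization of library size, with the SD between libraries; the most abundant gene of a list is the one with the highest mean over all 9 libraries. Fold changes are mutant against control and come with the standard error (SE) and the edgeR adjusted p over all genes tested; a gene was called when that p was under 0.05.

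The targeted gene was examined first. *Uqcrq* stood at 107, 76.8, 91.1 and 101 CPM in control replicates 71, 72, 73 and 76, and at 16.5, 28.2, 22.6, 20.3 and 19.0 CPM in mutant replicates 74, 75, 77, 78 and 79. Every mutant library lay below every control library, and the reads that were left came to 386 to 637 counts per mutant library. This was 0.227 of the control level (log2 fold change −2.14, SE 0.16, edgeR adjusted p = 2.09e-05). In bulk samples such as these, fewer cells that express a gene and less RNA per cell cannot be told apart, here and for every gene below.

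The label of the sorted cells was compared with nephron progenitor markers. Among them *Six2* is not independent of the sort, because its promoter drove the eGFP by which cells were sorted. *Six2* had the highest mean of the 12 markers over all 9 libraries, at 571 ± 53.4 CPM in controls (SD, n = 4) and 704 ± 102 CPM in mutants (SD, n = 5; log2 fold change 0.30, SE 0.13, edgeR adjusted p = 0.131). None of the 11 tested progenitor markers was called by edgeR or DESeq2; 2 had an unadjusted p under 0.05, and limma-voom called 1. *Six2* was called higher with limma-voom (adjusted p = 0.0349), with 1 surrogate variable (0.0326) and without mutant replicate 75 (0.0462). *Crym*, at the same mean as *Six2* in controls (571 CPM) and at 427 CPM in mutants (log2 fold change −0.42, edgeR adjusted p = 0.0698), was called lower with 1 surrogate variable (adjusted p = 0.00307). Summed over the list, progenitor marker levels ran from 2417 to 2910 CPM in controls and from 2429 to 2854 CPM in mutants, so the ranges overlapped (2-sided exact permutation test, p = 0.532).

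Of the 8 genes, 3 were called: *Ppp1r15b* and *Crebrf* were higher in mutants and *Oma1* was lower. Over all genes tested, 14.8% were called, 7.82% higher and 7.02% lower. The median log2 fold change of the 8 genes was −0.068, beside −0.0085 for all genes tested. The number of called genes in the whole table was 2225, with 1172 higher and 1053 lower. It fell to 1354, 1272 and 1046 without control replicates 71, 72 and 73 and to 1336 without mutant replicate 78, and rose to 3136 without mutant replicate 74. Values of mutants and controls did not overlap for 3 of the 8 genes, *Eif2ak2*, *Ppp1r15b* and *Crebrf*, where 15.2% of all genes tested showed no overlap. The other 5 genes were not called, and for those the interval of the difference is given.

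**Figure D1:**
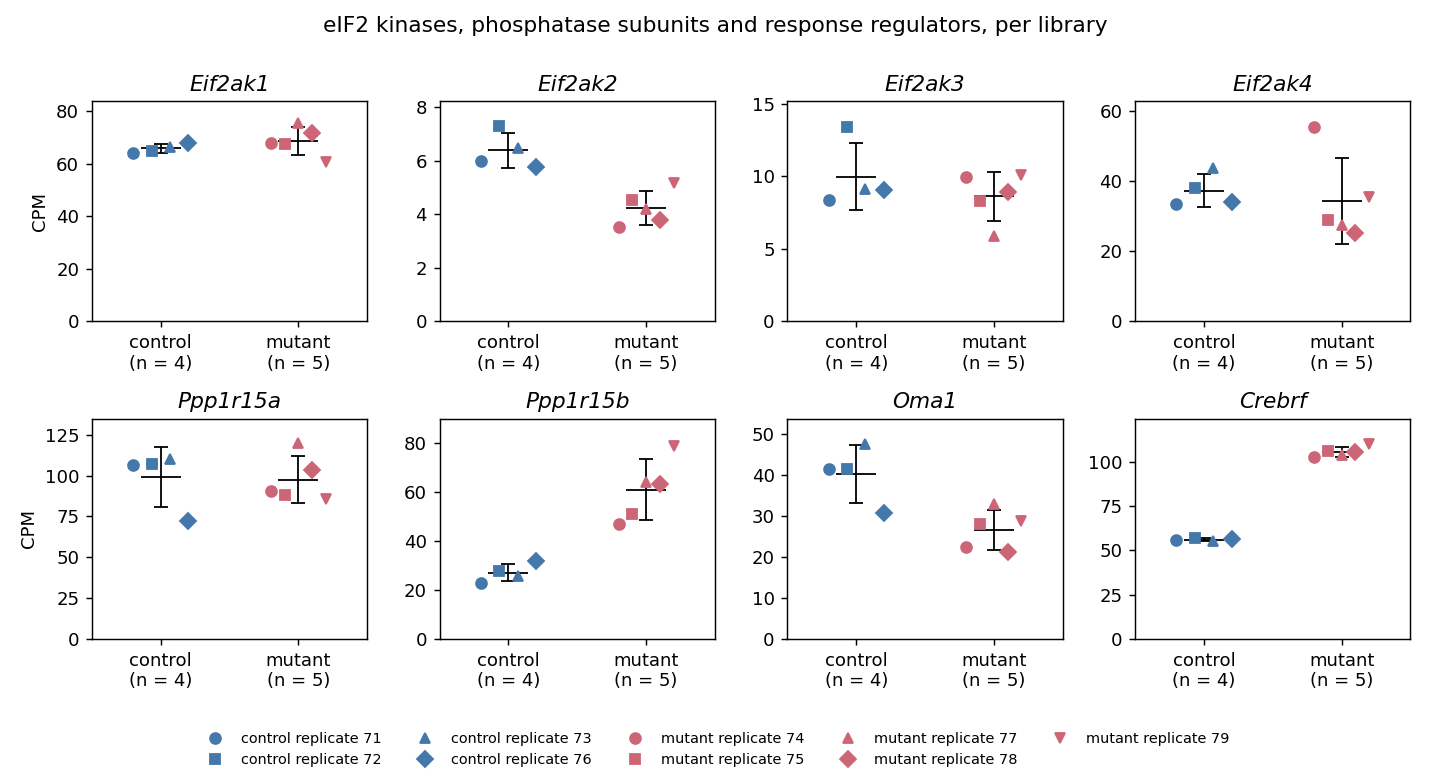
CPM (counts per 1000000 normalized counts, linear axis from 0) of each gene in the 4 control and 5 mutant libraries; each point is a library, horizontal bars are means and vertical bars the SD. *Ppp1r15b* and *Crebrf* lie higher in every mutant library than in any control library, *Eif2ak2* lies lower in every mutant library, and *Oma1* overlaps through control replicate 76.

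Among the kinases, *Eif2ak1* encodes HRI, which is held inactive by heme and is the kinase that DELE1 activates. Its level was 64.2, 65.0, 66.3 and 68.0 CPM in control replicates 71, 72, 73 and 76, and 67.9, 67.7, 75.4, 71.7 and 60.9 CPM in mutant replicates 74, 75, 77, 78 and 79. Mutant replicate 77 was the highest library and mutant replicate 79 the lowest, and the control range lay within the mutant range. No difference was called (log2 fold change 0.061, SE 0.10, edgeR adjusted p = 0.728), with a 95% interval of the fold change from 0.893 to 1.22. Counts of *Eif2ak1* may include reads of *Aimp2* on the opposite strand, since the libraries kept no strand and the genes share 487 exon bases; *Aimp2* had 901 to 1412 counts and a log2 fold change of 0.22 (edgeR adjusted p = 0.344). A further 172 exon bases are shared with *Ankrd61*, which had 0 to 17 counts.

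*Eif2ak2* encodes PKR, the kinase that binds RNA duplexes. It was the least abundant of the kinases, at 6.01, 7.28, 6.49 and 5.78 CPM in control replicates 71, 72, 73 and 76, and at 3.54, 4.52, 4.18, 3.79 and 5.17 CPM in mutant replicates 74, 75, 77, 78 and 79. All mutant libraries were below all control libraries, with control replicate 76 and mutant replicate 79 nearest to each other. The log2 fold change of −0.59 (SE 0.21) missed the threshold, with an edgeR adjusted p of 0.0713. The 95% interval of the fold change was 0.486 to 0.906, and counts were 137 to 187 in controls and 77 to 114 in mutants. *Eif2ak2* passed with DESeq2 (adjusted p = 0.0365) and with limma-voom (adjusted p = 0.0201), in a range of adjusted p from 0.0201 to 0.192 over all alternatives; those tools called 21.2% and 32.4% of all genes and 4 of the 8 genes each. The gene shares 174 exon bases with *Gm26637* on the opposite strand, which had 11 to 34 counts.

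Of the interferon-stimulated genes, a family to which *Eif2ak2* itself belongs, 1 of 16 tested was called. That was *Ifih1*, a sensor of RNA duplexes, at 0.196 ± 0.103 CPM in controls (SD, n = 4) and 1.69 ± 1.22 CPM in mutants (SD, n = 5; log2 fold change 3.08, SE 0.66, edgeR adjusted p = 0.00983). Its counts were 1 to 6 in controls and 10 to 76 in mutants, so that it met the count filter through the mutant libraries, and it was called in the 16 alternatives that tested it. The most abundant gene of that list, *Irf9*, was at 20.7 ± 3.43 and 24.9 ± 5.79 CPM (log2 fold change 0.27, edgeR adjusted p = 0.340). The median log2 fold change of the list was 0.51, while its summed level was 65.4 to 79.3 CPM in controls and 62.2 to 113 CPM in mutants (2-sided exact permutation test, p = 0.508), and 2 genes of the list were called without mutant replicate 74 or 78.

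*Eif2ak3* encodes PERK, the kinase of the endoplasmic reticulum membrane. Control replicates 71, 72, 73 and 76 had 8.35, 13.4, 9.10 and 9.03 CPM, and mutant replicates 74, 75, 77, 78 and 79 had 9.93, 8.28, 5.87, 8.90 and 10.1 CPM. Control replicate 72 was high and mutant replicate 77 low, and the other 7 libraries lay close together. Its log2 fold change was −0.21 (SE 0.22, edgeR adjusted p = 0.545), with a 95% interval of the fold change from 0.625 to 1.19; without control replicate 72 it was −0.036 (edgeR adjusted p = 0.943).

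Of 18 endoplasmic reticulum chaperones and sensors, 3 were called higher and 1 lower, with a median log2 fold change of 0.12. *Herpud1*, a membrane protein of protein degradation at the reticulum, went from 147 ± 19.7 to 337 ± 82.6 CPM (log2 fold change 1.20, SE 0.18, edgeR adjusted p = 0.00175). *Sdf2l1*, a luminal chaperone cofactor, went from 60.9 ± 11.1 to 32.8 ± 5.64 CPM (log2 fold change −0.89, SE 0.16, edgeR adjusted p = 0.00405). The other called genes of the list were the cochaperone gene *Dnajb9* (log2 fold change 1.07, edgeR adjusted p = 0.0246) and *Ern1* (1.05, adjusted p = 0.0470), the latter named after its value was seen. The *Dnajb9* call was lost without control replicate 71, 72 or 73 or mutant replicate 75, 77 or 78, with no filter beyond 1 count or with the Y-linked covariate, at adjusted p from 0.0510 to 0.0855. The *Ern1* call was lost without control replicate 71, 73 or 76 or mutant replicate 75, 77, 78 or 79, with upper-quartile normalization, with 1 surrogate variable or with the Y-linked covariate, at adjusted p from 0.0502 to 0.139. *Hspa5*, which encodes BiP, the chaperone that binds PERK, was the most abundant gene of the list, at 1373 ± 189 CPM in controls and 1521 ± 232 CPM in mutants (edgeR adjusted p = 0.511).

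*Eif2ak4* encodes GCN2, which is activated by uncharged tRNA when amino acids run short. Its levels were 33.4, 38.0, 43.7 and 34.2 CPM in control replicates 71, 72, 73 and 76, and 55.4, 28.8, 27.5, 25.3 and 35.4 CPM in mutant replicates 74, 75, 77, 78 and 79. Mutant replicate 74 was the highest of all 9 libraries, while mutant replicates 75, 77 and 78 were below every control, so the mutant range enclosed the control range. The SD was 35.7% of the mean in mutants and 12.6% in controls. The log2 fold change was −0.11 (SE 0.21, edgeR adjusted p = 0.755), with a 95% interval of the fold change from 0.675 to 1.27; without mutant replicate 74 it was −0.35 (edgeR adjusted p = 0.109), with limma-voom −0.40 (adjusted p = 0.0748), and with 1 surrogate variable the sign turned (0.030, adjusted p = 0.909).

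Across the 4 kinase genes, then, edgeR called 0, with 1 at an unadjusted p under 0.05, and DESeq2 and limma-voom each called 1, in all cases *Eif2ak2*. Among 15 genes whose products regulate the kinases, 1 was called. It was *Zak*, which encodes a kinase that senses stalled ribosomes and acts through GCN2 among others, at 19.8 ± 1.87 CPM in controls and 28.2 ± 2.67 CPM in mutants (log2 fold change 0.51, SE 0.14, edgeR adjusted p = 0.0256). The *Zak* call was lost without control replicate 71 or 73 or mutant replicate 78 or 79 or with no filter beyond 1 count, at adjusted p from 0.0547 to 0.0690; the list had 2 called genes without control replicate 76 and 4 without mutant replicate 74. *Hsp90ab1*, a chaperone gene with the highest mean of the list over all 9 libraries, was at 2710 ± 110 and 3004 ± 309 CPM (edgeR adjusted p = 0.392; 0.0386 with 1 surrogate variable), beside 3006 CPM for *Hspa8* in mutants.

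Heme synthesis and response genes, which bear on the cue of HRI, were called in 2 of 11 cases. *Hmox1*, the gene of the heme-degrading oxygenase, was higher, at 6.72 ± 1.78 CPM in controls and 19.7 ± 10.003 CPM in mutants (log2 fold change 1.55, SE 0.32, edgeR adjusted p = 0.00767). *Uros*, which encodes a synthesis enzyme, was lower, at 31.4 ± 2.36 and 21.3 ± 2.31 CPM (log2 fold change −0.56, SE 0.13, edgeR adjusted p = 0.0157; 0.0567 without control replicate 73). The most abundant gene, *Urod*, was at 208 ± 33.7 and 164 ± 13.2 CPM (edgeR adjusted p = 0.0700; 0.0128 with 1 surrogate variable), and the median log2 fold change of the list was −0.15.

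The phosphatase subunits differed from each other. *Ppp1r15b* encodes CReP, the subunit present in unstressed cells. It stood at 23.0, 27.8, 25.9 and 31.6 CPM in control replicates 71, 72, 73 and 76, and at 47.0, 51.2, 64.3, 63.4 and 78.9 CPM in mutant replicates 74, 75, 77, 78 and 79. All mutant libraries were above all control libraries, with mutant replicate 79 the highest and the lowest mutant library at 1.49 times the highest control library. *Ppp1r15b* rose 2.25-fold, with a 95% interval from 1.76 to 2.88 (log2 fold change 1.17, SE 0.17, edgeR adjusted p = 0.00117). It was called under all 17 alternatives, with adjusted p from 1.72e-09 to 0.00769.

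*Ppp1r15a* encodes GADD34, the subunit known to be induced by stress as a target of ATF4 and CHOP. Control replicates 71, 72, 73 and 76 had 107, 107, 110 and 71.9 CPM, and mutant replicates 74, 75, 77, 78 and 79 had 90.4, 87.9, 120.0, 104 and 85.6 CPM. Control replicate 76 was the lowest library and mutant replicate 77 the highest, and the groups overlapped. Its log2 fold change was −0.023 (SE 0.15, edgeR adjusted p = 0.933), with a 95% interval of the fold change from 0.788 to 1.23; its sign turned when any of control replicates 71, 72 and 73 or mutant replicates 74, 75 and 79 was left out, with values up to 0.032. Only 12 exon bases are shared with *Tulp2* on the opposite strand, which had 23 to 95 counts.

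The balance of the subunits was compared within each library, on counts per length. This 1 pair was compared after its values were seen. The level of *Ppp1r15a* was 9.22, 7.67, 8.50 and 4.53 times that of *Ppp1r15b* in control replicates 71, 72, 73 and 76, and 3.83, 3.42, 3.72, 3.26 and 2.16 times in mutant replicates 74, 75, 77, 78 and 79. Control replicate 76 came nearest to the mutants, and the groups did not overlap. The mean ratio was 7.48 ± 2.07 in controls (SD, n = 4) and 3.28 ± 0.665 in mutants (SD, n = 5). *Ppp1r15a* thus remained the more abundant transcript in all 9 libraries. An exact permutation test of the log2 ratio gave p = 0.00794, the smallest value possible with these libraries. Because the pair was compared after its values were seen, that p is descriptive only.

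No PP1 catalytic subunit gene was called by edgeR or DESeq2 among 3 tested; 1 had an unadjusted p under 0.05 and limma-voom called 1, as did edgeR without mutant replicate 74. *Ppp1ca*, the most abundant, was at 851 ± 118 CPM in controls and 744 ± 87.5 CPM in mutants (log2 fold change −0.19, SE 0.13, edgeR adjusted p = 0.325); with 1 surrogate variable it was called lower (log2 fold change −0.31, adjusted p = 0.00422). Among 8 mRNAs with upstream open reading frames that are read when eIF2 is phosphorylated, *Ppp1r15b* was called with *Atf4* and *Ddit3*, and the other 5, *Ppp1r15a*, *Atf5*, *Eprs*, *Ibtk* and *Slc35a4*, were not. The median log2 fold change of that list was 0.62.

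*Oma1* encodes the protease of the inner mitochondrial membrane that starts the relay to HRI and also cleaves the fusion protein OPA1. It was at 41.5, 41.4, 47.5 and 30.7 CPM in control replicates 71, 72, 73 and 76, and at 22.3, 28.2, 32.9, 21.2 and 28.9 CPM in mutant replicates 74, 75, 77, 78 and 79. Control replicate 76 was low for its group and lay below mutant replicate 77, so the groups overlapped; the other 3 controls were above all mutants. *Oma1* fell to 0.663 of the control level, with a 95% interval from 0.516 to 0.851 (log2 fold change −0.59, SE 0.17, edgeR adjusted p = 0.0317). The call was lost without control replicate 71 (adjusted p = 0.0733), 72 (0.0734) or 73 (0.114) or mutant replicate 78 (0.0778). It was also lost with the Y-linked covariate (edgeR adjusted p = 0.0640). Over all alternatives the adjusted p ranged from 0.00495 to 0.114.

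Other inner membrane proteases, prohibitins and DELE1 made a list of 14 genes, of which 1 was called. This was *Htra2*, a protease gene of the intermembrane space, at 49.95 ± 5.28 CPM in controls and 37.2 ± 4.27 CPM in mutants (log2 fold change −0.42, SE 0.13, edgeR adjusted p = 0.0421). The *Htra2* call was lost without control replicate 71, 72 or 73 or mutant replicate 75, 77, 78 or 79, with no filter beyond 1 count or with the Y-linked covariate, at adjusted p from 0.0688 to 0.112; without mutant replicate 74 the list had 5 called genes, and without control replicate 76 it had 3. The gene of DELE1, listed as *0610009O20Rik* and named after its value was seen, was at 16.9 ± 2.29 and 16.5 ± 2.58 CPM (log2 fold change −0.040, SE 0.17, edgeR adjusted p = 0.898). *Phb*, a prohibitin gene and the most abundant of the list, was at 304 ± 26.2 and 271 ± 20.4 CPM (edgeR adjusted p = 0.301; 0.0242 with 1 surrogate variable). Of the 14 genes, 6 had an unadjusted edgeR p under 0.05. *Pink1* (log2 fold change −0.61, edgeR adjusted p = 0.0896), *Afg3l1* (−0.58, 0.0634), *Spg7* (−0.51, 0.0553) and *Lonp1* (−0.46, 0.137) were not called. Their log2 fold changes were below that of *Htra2*, and that of *Oma1* was −0.59. The highest of the list was that of *Opa1* (0.24, edgeR adjusted p = 0.276). The median log2 fold change was −0.11, and the summed level was 1475, 1477, 1465 and 1376 CPM in control replicates 71, 72, 73 and 76 and 1254 to 1386 CPM in mutants.

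*Crebrf* encodes a protein that binds CREB3 and promotes its degradation. Its libraries were the most alike within groups, at 55.6, 57.0, 55.3 and 56.5 CPM in control replicates 71, 72, 73 and 76 and at 103, 106, 104, 106 and 110 CPM in mutant replicates 74, 75, 77, 78 and 79. The groups were far apart, with the lowest mutant library at 1.80 times the highest control library. Within groups the SD was 1.35% of the mean in controls and 2.69% in mutants, the smallest of the 8 genes in each group. *Crebrf* rose 1.88-fold, with a 95% interval from 1.63 to 2.17 (log2 fold change 0.91, SE 0.10, edgeR adjusted p = 0.000275). It was called under all 17 alternatives, with log2 fold changes from 0.89 to 0.93.

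Of 5 tested genes of the CREB3 family and the glucocorticoid receptor, all known partners or relatives of partners of CREBRF, 1 was called. *Creb3l1*, which encodes a membrane-bound transcription factor, went from 4.03 ± 1.26 to 8.54 ± 3.12 CPM (log2 fold change 1.08, SE 0.30, edgeR adjusted p = 0.0302). That call was lost without control replicate 71 (adjusted p = 0.0868) or 73 (0.0873) or mutant replicate 75 (0.0664) or with the Y-linked covariate (0.0555). *Creb3l2* had the highest mean over all 9 libraries, at 117 ± 17.4 and 93.6 ± 22.9 CPM (edgeR adjusted p = 0.215; 0.0173 with limma-voom), although *Creb3* was higher in mutants (99.7 CPM), and the median log2 fold change was 0.13.

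To set the genes side by side, levels were expressed per 1000 bases of gene length and 1000000 normalized counts. In controls the order was *Ppp1r15a* (35.3 ± 6.47), *Oma1* (21.04 ± 3.65), *Eif2ak1* (15.2 ± 0.382), *Crebrf* (7.52 ± 0.101), *Eif2ak4* (7.04 ± 0.885), *Ppp1r15b* (4.84 ± 0.645), *Eif2ak3* (2.21 ± 0.512) and *Eif2ak2* (1.48 ± 0.154). Only *Crebrf* and *Eif2ak4* had overlapping ranges among neighbors in that order. In mutants *Ppp1r15a* was still the most abundant (34.7 ± 5.12), followed by *Eif2ak1* (15.9 ± 1.25), *Crebrf* (14.2 ± 0.381), *Oma1* (13.9 ± 2.55) and *Ppp1r15b* (10.9 ± 2.24), whose ranges overlapped from each to the next, as did those of *Ppp1r15b* and *Eif2ak4* (6.51 ± 2.32). *Eif2ak3* (1.91 ± 0.377) and *Eif2ak2* (0.983 ± 0.149) were again the lowest. HRI was therefore the most abundant kinase transcript per length in both genotypes, and PERK and PKR transcripts were the least abundant.

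Of 8 transcription factors and adaptors downstream of eIF2, 7 were called, all higher in mutants, and the median log2 fold change was 1.46. *Atf4* was at 204, 168, 189 and 207 CPM in control replicates 71, 72, 73 and 76 and at 295, 461, 580, 482 and 448 CPM in mutant replicates 74, 75, 77, 78 and 79 (log2 fold change 1.24, SE 0.17, edgeR adjusted p = 0.000857). Mutant replicate 74 was the lowest of the mutants and still above all controls; it was also the lowest mutant library for *Ppp1r15b* and for *Crebrf*. The genes with the smallest adjusted p were *Nupr1* (log2 fold change 4.61, edgeR adjusted p = 0.00012), *Ddit3*, which encodes CHOP (1.67, adjusted p = 0.000271), and *Trib3* (2.88, adjusted p = 0.000525). *Atf5* was the gene not called (0.89, adjusted p = 0.166).

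Of 22 ATF4 and CHOP target genes, 16 were called, all higher, with a median log2 fold change of 1.17; *Trib3* and *Atf3* stand in both lists, and *Herpud1* is also in the endoplasmic reticulum list. The 3 with the smallest adjusted p were the mitochondrial folate enzyme gene *Mthfd2* (log2 fold change 2.57, edgeR adjusted p = 2.09e-05), the asparagine synthetase gene *Asns* (2.85, adjusted p = 6.88e-05) and *Chac1*, which encodes a glutathione-degrading enzyme (2.90, adjusted p = 0.00014). *Phgdh*, the gene of the entry enzyme of serine synthesis and the most abundant of the list, was at 843 ± 107 and 1081 ± 160 CPM (edgeR adjusted p = 0.0860); it was called without control replicate 76 (0.0472), with 1 surrogate variable (0.0497), with DESeq2 (0.0451) and with limma-voom (0.0153). *Ppp1r15a* was among the 6 targets that were not called.

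The substrate of the kinases and its exchange factor were called in 1 of 8 tested genes, with a median log2 fold change of 0.29. *Eif2s2*, which encodes the beta subunit of eIF2 and had the highest mean of that list over all 9 libraries, was at 199 ± 37.9 CPM in controls and 355 ± 75.2 CPM in mutants (log2 fold change 0.84, SE 0.18, edgeR adjusted p = 0.00939); in controls *Eif2s1* was higher (204 CPM). The list had 2 called genes without control replicate 76 and 3 without mutant replicate 74. *Eif2s3x* has a copy on the Y chromosome, *Eif2s3y*, which was not tested and had 0 to 2 counts in the 6 libraries without other Y-linked reads, beside 1196 to 2072 counts of *Eif2s3x* there. Of 11 other factors of start codon selection, 2 were called, *Eif5* (log2 fold change 0.67, edgeR adjusted p = 0.00248) and *Eif1* (0.92, adjusted p = 0.00588); *Eif1* was also the most abundant, at 781 ± 90.5 and 1478 ± 351 CPM, and the median log2 fold change was 0.26.

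**Figure D2:**
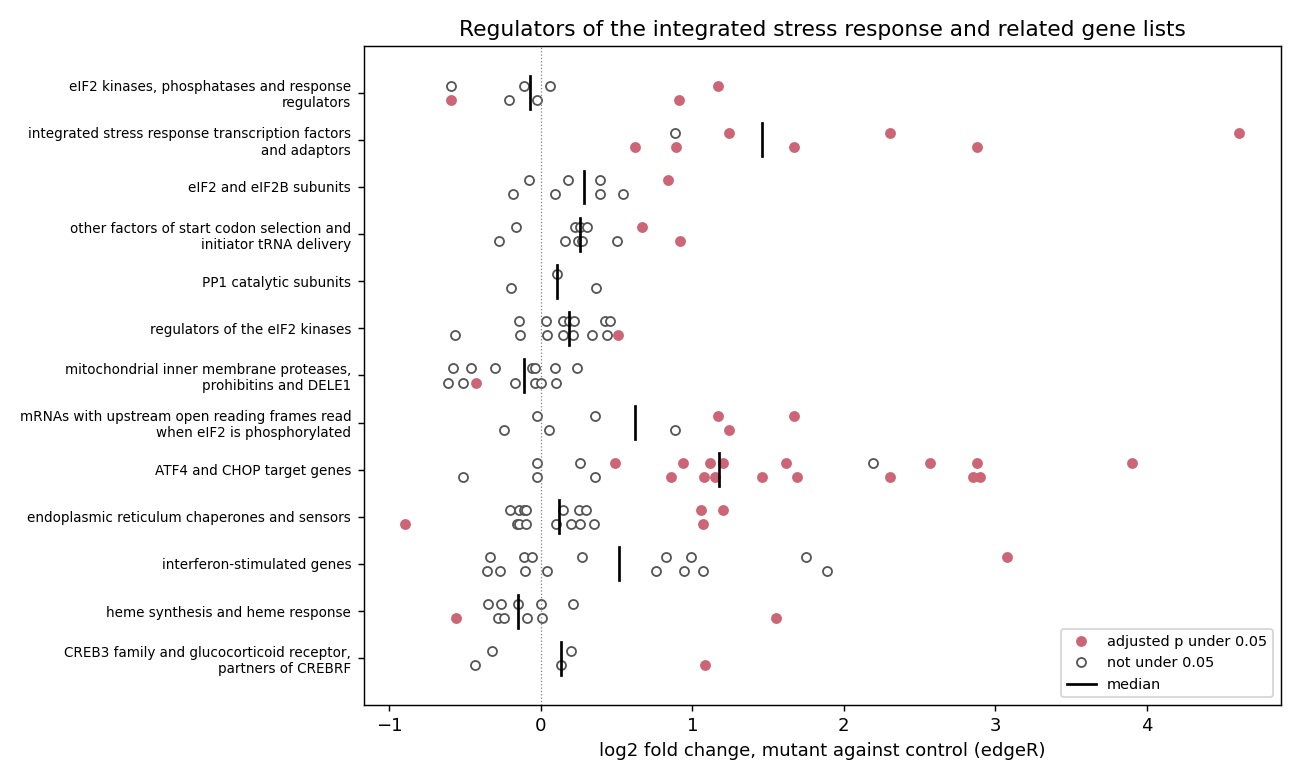
The log2 fold change, mutant against control (edgeR, horizontal axis), of each tested gene, with a row for the 8 genes and for each of 12 related lists; filled points have an adjusted p under 0.05, open points do not, and vertical bars are medians. The medians of the integrated stress response factors (1.46) and of the ATF4 and CHOP targets (1.17) are the farthest from 0, and that of the 8 genes is −0.068.

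The summed levels of the 12 related lists were also compared, with p unadjusted (2-sided exact permutation test). For the integrated stress response factors, the ATF4 and CHOP targets and the mRNAs with upstream open reading frames p was 0.00794, with the sum higher in every mutant library than in any control library. These lists share genes, so their results are not independent. *Atf4*, *Atf5* and *Ddit3* are both among the factors and among the mRNAs, and *Trib3* and *Atf3* both among the factors and among the targets. The mRNAs also include *Ppp1r15b*, and their *Slc35a4* was lower in every mutant library than in any control library (log2 fold change −0.25, edgeR adjusted p = 0.114). The permutation p was 0.0238 for the start codon factors, higher in mutants, and for the mitochondrial protease and heme lists, lower in mutants, each with overlapping libraries. The other 6 lists had p from 0.0556 to 0.905.

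Genes whose log2 CPM ran most like that of each called gene across the 9 libraries were found among 9348 genes whose mean reached 10 CPM. For *Ppp1r15b* they were the amino acid transporter gene *Slc7a5* (Pearson r = 0.979), the tyrosyl-tRNA synthetase gene *Yars* (0.979) and *Fnip1*, which encodes a partner of folliculin (0.977). For *Crebrf* they were *Fnip1* (0.984), the palmitoyltransferase gene *Zdhhc20* (0.981) and the atypical kinase gene *Riok3* (0.981). For *Oma1* they included *Phf7* (0.947) and the quinone oxidoreductase gene *Cryz* (0.938). These values describe the 9 libraries, which share the genotype difference, and carry no p. *Fnip1*, found for both genes that rose, was at 31.3 CPM in controls and 61.7 CPM in mutants (log2 fold change 0.98, SE 0.12, edgeR adjusted p = 0.000602).

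The called genes lie on different chromosomes of GRCm38: *Ppp1r15b* at chr1:133131143-133139783, *Oma1* at chr4:103313812-103371868 and *Crebrf* at chr17:26715650-26776635, all on the plus strand and without another gene of the table overlapping them. RefSeq promoter sequences (build GRCm38.p6, 250 bases before to 50 after the gene start) were found for 7 of the 8 genes; *Ppp1r15b* had no entry. They were searched on both strands for the C/EBP-ATF response element TGATGNAA, the cAMP response element TGACGTCA and the E-box CACGTG, which do not overlap in these windows. Among 32851 promoters of that length, 3.97% held the C/EBP-ATF element, 1.79% the cAMP element and 7.15% the E-box. *Crebrf*, which rose, and *Ppp1r15a*, which was not called, are shown because they were the only genes of the 7 with a match. The *Crebrf* promoter (chr17:26715400-26715699, plus strand) held an E-box at 2 places, as did 0.594% of promoters with 2 or more, and the *Ppp1r15a* promoter (chr7:45526219-45526518, minus strand) held the cAMP element; matches are in capitals, 5′ to 3′.
Crebrf: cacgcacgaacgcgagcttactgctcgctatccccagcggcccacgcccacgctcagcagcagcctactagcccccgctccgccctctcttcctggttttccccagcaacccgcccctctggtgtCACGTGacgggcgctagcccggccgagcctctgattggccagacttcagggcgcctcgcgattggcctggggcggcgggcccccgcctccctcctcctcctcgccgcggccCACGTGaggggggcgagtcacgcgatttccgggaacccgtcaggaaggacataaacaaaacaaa
Ppp1r15a: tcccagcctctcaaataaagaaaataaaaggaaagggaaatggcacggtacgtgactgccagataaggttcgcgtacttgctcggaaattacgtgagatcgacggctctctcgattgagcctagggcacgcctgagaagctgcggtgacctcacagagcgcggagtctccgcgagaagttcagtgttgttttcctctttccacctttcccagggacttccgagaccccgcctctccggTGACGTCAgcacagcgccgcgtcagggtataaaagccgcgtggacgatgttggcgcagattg
A match describes the letters and is not a site of binding, and none of the 7 genes had the C/EBP-ATF element in this window.

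Markers of other cells moved with genotype. The study found eGFP-positive cells to be a smaller share of kidney cells in mutants than in heterozygous controls. It also could not fully exclude that differentiating control cells with low GFP were captured. Of 13 tested stroma markers, 9 were called, all higher; the summed level of the 14 listed was 167, 152, 136 and 215 CPM in control replicates 71, 72, 73 and 76 and 564, 946, 318, 349 and 432 CPM in mutant replicates 74, 75, 77, 78 and 79 (2-sided exact permutation test, p = 0.0238). The smallest adjusted p were those of *Ntn1* (log2 fold change 3.85, edgeR adjusted p = 0.00123), *Col1a1* (1.89, adjusted p = 0.00334) and *Pdgfra* (3.66, adjusted p = 0.00623), and *Col3a1* had the highest mean over all 9 libraries, at 15.3 ± 7.56 and 83.1 ± 58.4 CPM (edgeR adjusted p = 0.0219; 0.0831 without control replicate 72, 0.0519 without control replicate 73 and 0.0647 with no filter beyond 1 count), although *Col1a1* was higher in controls (20.1 CPM). Of 9 tested myeloid markers, 2 were called higher, *Tyrobp* (log2 fold change 3.68, edgeR adjusted p = 0.0234) and *Fcer1g* (3.34, adjusted p = 0.0471); all 9 had an unadjusted p under 0.05 and a positive log2 fold change, the median was 3.49, and DESeq2 called 6 and limma-voom 8. In controls *Tyrobp* had 1 to 37 counts and *Fcer1g* 0 to 79, against 44 to 438 and 88 to 530 in mutants, so both met the count filter mainly through the mutant libraries; neither was tested with at least 10 counts in every library. The *Tyrobp* call was lost without control replicate 72 or mutant replicate 78, and the *Fcer1g* call without control replicate 71 or 72 or mutant replicate 75, 77, 78 or 79 or with upper-quartile normalization (adjusted p = 0.0503). Both calls were also lost with no filter beyond 1 count (adjusted p = 0.0941 for *Tyrobp* and 0.131 for *Fcer1g*), with 1 surrogate variable (0.0714 and 0.0790) and with the Y-linked covariate (0.0529 and 0.0722). Summed myeloid levels were 0.639, 9.85, 0.464 and 18.1 CPM in control replicates 71, 72, 73 and 76 and 12.4, 66.0, 185, 76.98 and 59.9 CPM in mutant replicates 74, 75, 77, 78 and 79 (2-sided exact permutation test, p = 0.0238), with *C1qb* the most abundant at 1.27 and 19.1 CPM (edgeR adjusted p = 0.0551; 0.00867 with DESeq2, 0.0215 with limma-voom, 0.0382 without control replicate 76 and 0.0419 without mutant replicate 74). Mutant replicate 75 was highest for stroma markers and mutant replicate 77 for myeloid markers, whereas *Crebrf* was 106 and 104 CPM in those libraries, and *Ppp1r15b* was highest in mutant replicate 79. *Ifih1*, at 2.56, 3.37, 0.510, 0.885 and 1.13 CPM in mutant replicates 74, 75, 77, 78 and 79, had the same order of mutant libraries as the summed stroma markers. *Creb3l1*, at 11.8, 12.1, 5.97, 6.54 and 6.31 CPM in those libraries, was likewise highest in mutant replicates 75 and 74. The part of these cells in the results for *Ppp1r15b*, *Crebrf*, *Oma1*, *Ifih1* and *Creb3l1* was not tested.

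Committed nephron and renal vesicle markers were called lower in 3 of 9 cases, *Lhx1* (log2 fold change −2.36, edgeR adjusted p = 0.00102), *Wnt4* (−1.76, adjusted p = 0.0058) and *Ccnd1* (−1.23, adjusted p = 0.0438). The *Ccnd1* call was lost without control replicate 71, 72 or 73 or mutant replicate 75, 77, 78 or 79, and also with no filter beyond 1 count (adjusted p = 0.172), with 1 surrogate variable (0.130) and with the Y-linked covariate (0.168). Their summed level was 529, 563, 679 and 344 CPM in control replicates 71, 72, 73 and 76 and 317, 258, 370, 300 and 286 CPM in mutant replicates 74, 75, 77, 78 and 79 (2-sided exact permutation test, p = 0.0159), with *Pax8* at 182 and 181 CPM and *Wnt4* at 234 and 68.7 CPM. Control replicate 76 was the lowest control for this sum as for *Oma1*, and mutant replicate 77 the highest mutant for both; the part of committed cells in the *Oma1* result was not tested. Summed levels were at most 14.8 CPM for proximal tubule markers, 68.6 CPM for ureteric bud markers, 10.8 CPM for endothelium markers and 2.78 CPM for erythroid markers in any library, led by *Lrp2*, *Hoxb7*, *Emcn* and *Alas2*. Of these lists, the called gene was *Pecam1* (0.248 and 1.36 CPM, edgeR adjusted p = 0.0469), lost when any of the controls was left out, with 1 surrogate variable (adjusted p = 0.0533) and with the Y-linked covariate (0.0839). *Pecam1* had 0 to 9 counts in controls and 9 to 57 in mutants, met the count filter through the mutant libraries, and was not tested in 5 of the 17 alternatives. *Hoxb7* was called lower with DESeq2 (adjusted p = 0.0372), with limma-voom (0.00946) and without mutant replicate 74 (0.0164). The 4 tested ureteric bud markers went both ways, with log2 fold changes from −0.85 to 2.88 and a median of −0.044. Of these, 3 had an unadjusted edgeR p under 0.05, and DESeq2 and limma-voom each called 2. *Ret*, *Wnt9b*, *Hba-a1* and *Cdh5* were each at a mean under 0.5 CPM in both genotypes.

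Reads of the Y-linked genes *Ddx3y*, *Eif2s3y*, *Kdm5d* and *Uty* split the libraries unevenly: control replicates 72 and 73 and mutant replicate 79 had 6758, 7773 and 7018 such counts, and the other 6 libraries had at most 4. Among the 6 libraries without these reads, *Ppp1r15b* was at 27.3 CPM in 2 controls and 56.5 CPM in 4 mutants, *Crebrf* at 56.0 and 105 CPM, and *Oma1* at 36.1 and 26.2 CPM. Among the 3 libraries with them, the levels were 26.9 CPM in 2 controls and 78.9 CPM in 1 mutant for *Ppp1r15b*, 56.2 and 110 CPM for *Crebrf*, and 44.4 and 28.9 CPM for *Oma1*. The direction was the same within both sets for these 3 genes, and the libraries overlapped only for *Oma1*, in the set without Y-linked reads. *Eif2ak2* and *Eif2ak3* were also lower in mutants within both sets. *Eif2ak1*, *Eif2ak4* and *Ppp1r15a* turned direction: the log2 ratio of means was 0.097, 0.021 and 0.17 without Y-linked reads and −0.11, −0.21 and −0.35 with them. With Y-linked expression as a covariate, an alternative chosen after the data were seen, the *Oma1* log2 fold change was −0.52 and its edgeR adjusted p 0.0640, in the range over its alternatives given above.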

How the data were processed

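RNA-seq of eGFP-sorted nephron progenitors was analysed from a table of 26858 genes in 4 control and 5 mutant libraries. The deposited table holds counts of reads per gene, and FPKM that the authors computed from those counts, gene length and summed counts; recomputed FPKM were within 1% for 100% of nonzero values. Per the labels, cDNA was amplified from low-input total RNA with poly(A) selection and without strand. The submitters' processing notes name STAR, DESeq2 and mm10. Columns of the authors' own comparison (mean signal per genotype, log2 fold change, p-value and adjusted p-value) were not used.

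The main test was that of edgeR 4.0.16 in R 4.3.3 (filterByExpr on the group, TMM, robust quasi-likelihood test, Benjamini-Hochberg adjustment over 14990 genes, threshold 0.05). It was also run on counts simulated with the means, library sizes and dispersions of these data, where some changed genes were not called. That simulation does not cover libraries that depart from their group. Dividing the log2 fold change by √F gave the SE. Totals and summed levels were tested with a 2-sided exact permutation test over samples (scipy 1.17.1, Python 3.11.15). Levels per length used counts and gene lengths of the table. Figures were drawn with matplotlib 3.10.9. Library totals ran from 21040536 to 23986458 counts.

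The 8 genes, the 12 pathway lists and the 9 marker lists were chosen with earlier results of these data known; the podocyte markers and a few single genes are not reported here. Symbols were matched to the table directly or through RefSeq synonyms. Named genes are the 8 genes and *Uqcrq*, from each list the called genes with the 3 smallest adjusted p and the most abundant gene by mean CPM, and, for each called gene, the 3 genes with the highest Pearson r of log2(CPM + 0.5) among tested genes whose mean reached 10 CPM. *Ern1*, *Atf5*, *Eprs*, *Ibtk*, *Slc35a4*, the gene of DELE1, *Pink1*, *Afg3l1*, *Spg7*, *Lonp1*, *Opa1*, *Crym*, *Hspa8*, *Eif2s1*, *Creb3*, *Eif2s3x*, genes overlapping a member, the low markers and the Y-linked genes were named after their values were seen. Alternatives were limma-voom with sample quality weights (limma 3.58.1), DESeq2 1.42.0, 1 surrogate variable from sva 3.50.0, upper-quartile or RLE normalization, a stricter filter (10 counts or more per library) or none beyond 1 count, leaving out each library in turn, the authors' FPKM for levels and, added after the data were seen, a Y-linked covariate.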

Additional observations from a re-analysis of the deposited data

Results flagged for a closer look

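Among 62 groups of libraries examined (each of the 8 genes and *Uqcrq*, the summed level of each list and the ratio of the phosphatase subunits, per genotype), 3 had a library far from the rest of its group; chance gives about 1 in 20. *Eif2ak3* in control replicate 72 was 13.4 CPM, where the nearest control was 9.10 CPM. *Ppp1r15a* in control replicate 76 was 71.9 CPM, where the nearest control was 107 CPM. The summed level of mitochondrial inner membrane proteases, prohibitins and DELE1 in control replicate 76 was 1376 CPM, where the nearest control was 1465 CPM.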

How the results depend on the processing

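*Ppp1r15b*, *Crebrf* and *Uqcrq* kept their direction and their side of the threshold under all 17 alternatives, as did *Eif2ak1* and *Eif2ak3*, which stayed above it. Of the 8 genes, 2 to 4 were called in any of them. The *Oma1* log2 fold change ranged from −0.69 to −0.50 with 1 library left out, and was −0.52 with the Y-linked covariate. *Eif2ak2* was past the threshold at −0.58 with DESeq2 and −0.63 with limma-voom. *Eif2ak4* was 0.030 with 1 surrogate variable. *Ppp1r15a* ranged from −0.14 to 0.032 with 1 library left out. Called genes numbered 4858 with limma-voom, 3184 with DESeq2 and 1046 to 3136 with 1 library left out.

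For the eIF2 and eIF2B subunits, called genes numbered 2 with DESeq2, 6 with limma-voom and 1 to 3 with 1 library left out. Start codon factors had 6 with limma-voom. PP1 catalytic subunits had 1 with limma-voom, 1 with 1 surrogate variable and 0 to 1 with 1 library left out. Kinase regulators had 2 with DESeq2, 0 with no filter beyond 1 count, 4 with limma-voom, 5 with 1 surrogate variable and 0 to 4 with 1 library left out. Mitochondrial proteases had 3 with DESeq2, 2 with upper-quartile normalization, 2 with no filter beyond 1 count, 2 with at least 10 counts in every library, 5 with limma-voom, 7 with 1 surrogate variable and 0 to 5 with 1 library left out. mRNAs with upstream open reading frames had 5 with 1 surrogate variable. Endoplasmic reticulum genes had 2 with the Y-linked covariate and 2 to 4 with 1 library left out. Interferon-stimulated genes had 3 with DESeq2, 0 with at least 10 counts in every library, where *Ifih1* was not tested, 3 with limma-voom and 1 to 2 with 1 library left out. Heme genes had 4 with limma-voom, 4 with 1 surrogate variable and 1 to 2 with 1 library left out. The CREB3 family had 2 with limma-voom, 0 with the Y-linked covariate and 0 to 1 with 1 library left out.

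With the authors' FPKM, levels were 15.8 and 15.4 for *Eif2ak1* in controls and mutants, so that its direction turned, and 7.79 and 13.8 for *Crebrf*. All of these but that of *Eif2ak1* in mutants were farther from the computed levels than 1 SD. The authors' FPKM hold no TMM factor, the step in which they differ from the computed levels. The cause of the other changes was not tested. No paired analysis was possible because control and mutant samples share no replicate number. *Eif2ak2* had the fewest counts of the 8 genes, 77 to 187 per library.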
